A study of Lactuca sativa with 20 samples.

Results

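The effect of ACC was measured in whole lettuce seedlings that also held the peptide CLE12p. Seedlings of *Lactuca sativa* var. Little Gem, 4 days old, were kept for 2 h in 10 µM CLE12p with 10 µM ACC, or in 10 µM CLE12p alone, and their RNA was sequenced. Each of these groups held 3 libraries, so 6 of the 20 libraries of the series carry the comparison, and all genes were members. The remaining libraries were 3 each of 10 µM ACC, water, 10 µM CLE12p with 10 µM ABA, and 10 µM ABA, and 2 of 0.02% ethanol. All were grown on MS medium in continuous light at 22 °C, and the labels do not say whether replicates were separate batches of seedlings. The p-values therefore measure the spread between libraries within groups, pooled over all 7 groups of the series, and this spread may be partly technical.

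ACC is the direct precursor of ethylene, which plants make from it with the enzyme ACC oxidase. In *Arabidopsis*, ethylene binds membrane receptors, which then release a brake on the transcription factors that switch on ethylene response genes, and the hormone is known for its part in senescence and in the growth of dark-grown seedlings. CLE peptides are short secreted signals that are perceived by receptor kinases at the cell surface, and CLE12p carries the name of the *LsCLE12* peptide, which the study's title links to delayed senescence. Setting the combination against the peptide alone asks what ACC does when the peptide is already there. ABA, abscisic acid, is a stress hormone and serves here only for side by side values.

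The titles and treatment labels of the 3 libraries name CLE12p with ACC, but the design and treatment texts list ABA with ACC in its place. Gene lists called from other libraries were used to check the labels. Over the 1206 genes called higher with ABA against ethanol (5.15% of genes tested), mean log2 CPM was 3.57, 3.60 and 3.59 in CLE12p with ACC, against 4.56, 4.53 and 4.51 in ABA. CPM is the read count of a gene scaled to a common library size. Over the 620 genes called higher with CLE12p with ABA against ABA (2.65% of genes tested), mean log2 CPM was 5.21, 5.24 and 5.19 in CLE12p with ACC, against 4.73, 4.70 and 4.69 in ACC. The 3 libraries thus stood apart from the ABA level on the first list and above ACC alone on the second, as their labels say. Library totals ran from 18614220 to 24647876 counts in the 6 libraries compared. The median SD per gene between libraries was 0.177 log2 CPM in CLE12p and 0.166 in CLE12p with ACC, wider than in water (0.149) and in ACC (0.129). Gene models could not be matched to names, so neither the tissue nor any pathway was checked against marker genes. The identifiers are those of the deposited table, and no function is given for them.

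ACC raised 588 genes and lowered 548 in seedlings that held the peptide. These are 2.51% and 2.34% of the 23413 genes tested, together 1136 genes or 4.85%, at an adjusted p below 0.05 in edgeR's quasi-likelihood test. Most changes were modest. The median change was 1.51-fold among the genes that rose, with quartiles of 1.35 and 1.81, and 1.47-fold among those that fell, with quartiles of 1.34 and 1.78. At least 2-fold changes were found in 96 of the genes that rose and in 93 of those that fell, while 289 and 297 changed by less than 1.5-fold. The counts of at least 2-fold ran from 55, without CLE12p replicate 2, to 173, without CLE12p replicate 3, among genes that rose, and from 40 to 177 without these same libraries among genes that fell. In whole seedlings, fewer cells of a type and less RNA per cell cannot be told apart.

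The libraries of both groups did not overlap for 575 of the 588 genes that rose and for 494 of the 548 that fell. Over all genes tested, 2009 (8.58%) lay entirely higher and 1974 (8.43%) entirely lower in CLE12p with ACC. Called genes with 0 counts in all libraries of either group numbered 0. With 3 or fewer counts over the libraries of a group, there was 1 called gene for CLE12p with ACC and 1 for CLE12p. Calls became more frequent with read count, from 0.790% of genes in the lowest of 5 equal groups by mean log2 CPM to 8.35% in the highest. Median changes among the calls ran the other way, at 3.39-fold in the lowest group and 1.35-fold in the highest. The lowest group held 20 calls that rose and 17 that fell, of 4683 genes. Small changes are harder to call at low counts, so these medians do not compare the responses of genes with few and many reads. These groups rank genes by reads and not per length.

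The genes with the highest and lowest fold changes, among calls that averaged 1 log2 CPM or more and did not overlap, show the response library by library. Lsat_1_v5_gn_4_7141 had 7.60, 9.65 and 7.14 CPM in CLE12p with ACC, against 1.05, 0.534 and 1.78 CPM in CLE12p. All libraries with ACC lay above all those without it. Its log2 fold change was 2.88 ± 0.35 (SE; edgeR adjusted p = 4.72e-05), and ACC against water gave 3.22 ± 0.35 (adjusted p = 6.13e-06). The gene reached 8.63 ± 2.90 CPM in ACC, against 0.925 ± 0.382 CPM in water (SD, n = 3 each). ABA also raised it, to 5.72 ± 1.43 CPM in 3 ABA libraries, against 1.58 ± 0.434 CPM in 2 ethanol libraries (SD; adjusted p = 0.00202).

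Lsat_1_v5_gn_9_62601 had 140.3, 168 and 172 CPM in CLE12p with ACC, against 29.7, 8.92 and 28.4 CPM in CLE12p. The peptide libraries were uneven, with replicate 2 the lowest, and none came near those with ACC. The gene rose by 2.86 ± 0.28 on the log2 scale (SE; edgeR adjusted p = 2.99e-06). In water its ACC change was 2.58 ± 0.29 (adjusted p = 7.42e-06), at 51.2 to 66.1 CPM in the 3 ACC libraries, against 6.80 to 12.0 CPM in the 3 water libraries. Peptide beside ABA raised it as well, by 1.53 on the log2 scale (adjusted p = 0.00125), to 99.7 ± 26.3 CPM in CLE12p with ABA, against 34.6 ± 0.830 CPM in ABA (SD, n = 3 each).

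Lsat_1_v5_gn_3_93020 had the lowest fold change of these, with 0.461, 0.727 and 0.845 CPM in CLE12p with ACC, against 2.99, 4.03 and 3.20 CPM in CLE12p. The libraries with ACC held 10, 15 and 20 counts of it, so its size of change is less certain than its direction. The log2 fold change was -2.32 ± 0.38 (SE; edgeR adjusted p = 8.30e-04), beside -3.81 ± 0.40 in water, where the ACC libraries held 2, 20 and 6 counts. The difference of 1.49 ± 0.58 between both changes did not pass the interaction test (adjusted p = 0.536).

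Lsat_1_v5_gn_7_13740 had 6.73, 7.56 and 8.96 CPM in CLE12p with ACC, against 33.9, 34.6 and 14.3 CPM in CLE12p. Here replicate 3 of the peptide lay well below its partners, though still above every library with ACC. The gene fell by 1.83 ± 0.27 on the log2 scale (SE; edgeR adjusted p = 2.73e-04), and its log2 fold change with ACC against water was -1.38 ± 0.24 (adjusted p = 7.60e-04). ABA moved it the other way, to 70.5 ± 4.50 CPM in 3 ABA libraries, against 34.6 ± 7.37 CPM in 2 ethanol libraries (SD; adjusted p = 0.0136).

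**Figure D1:**
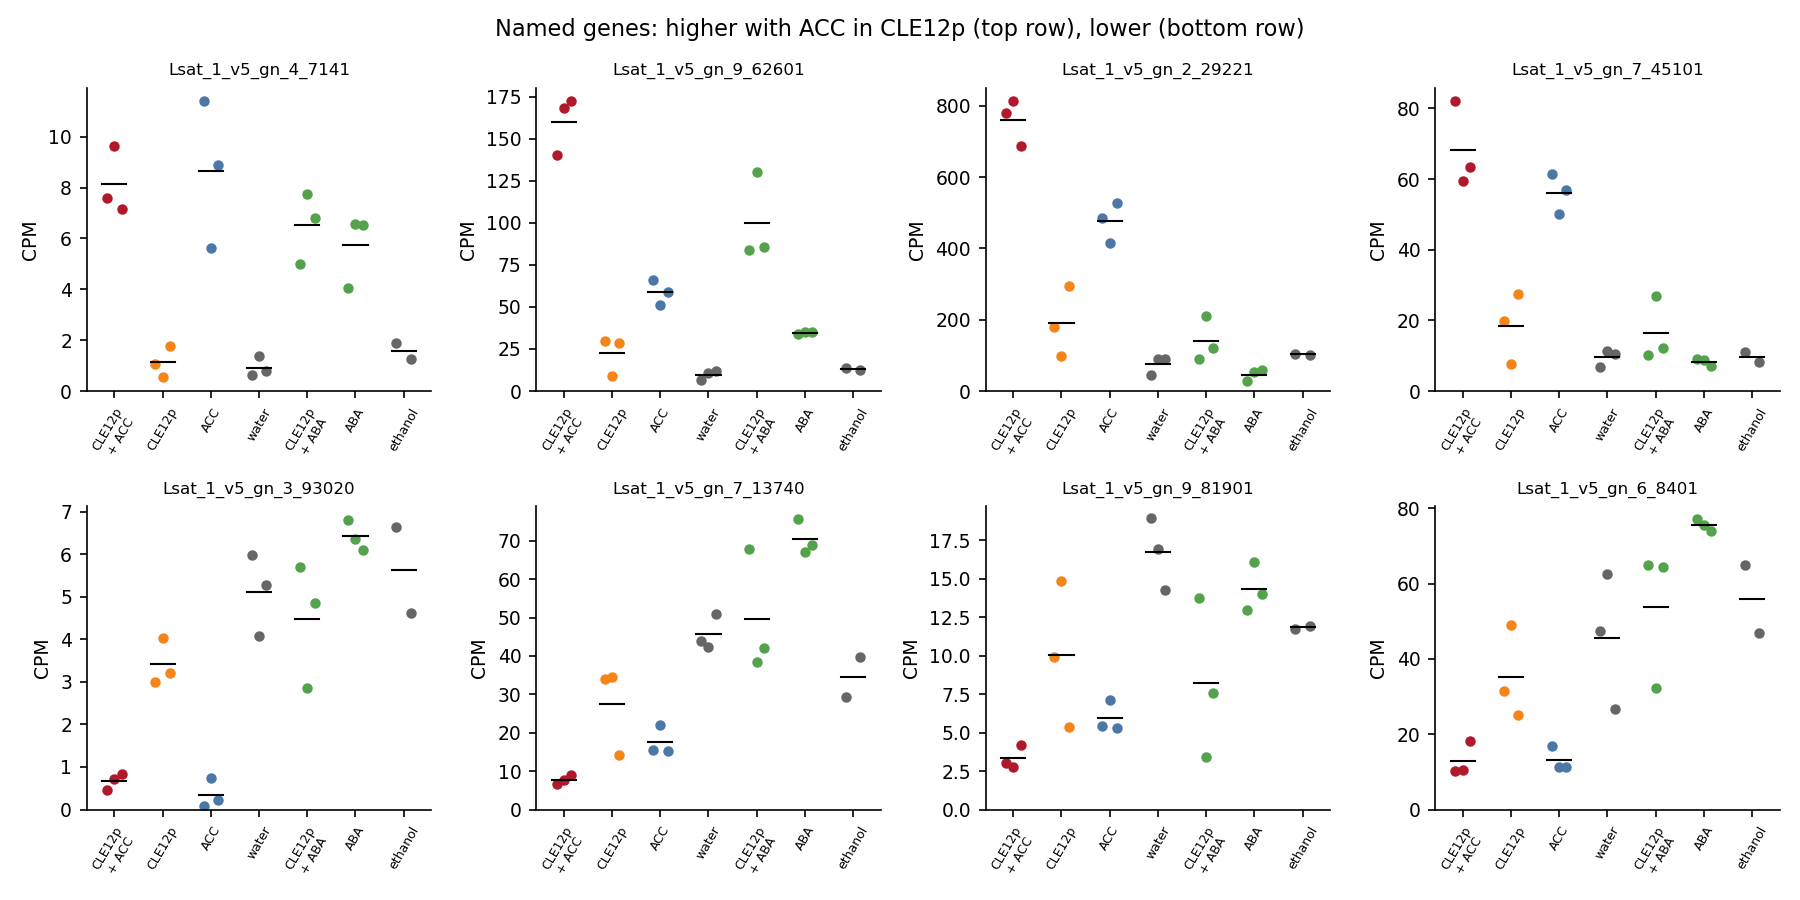
CPM (vertical axes, from 0) of the 8 genes named for ACC beside the peptide, in each library of the 7 groups; points are libraries and bars are group means. In the top row CLE12p with ACC lies above CLE12p in every library, and in the bottom row below it. Genes were named only if these libraries did not overlap. The CLE12p libraries scatter widely, as at 98.2 to 295 CPM for Lsat_1_v5_gn_2_29221.

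The question that follows is how far this is the response that ACC gives without the peptide. ACC against water, which shares no library with the comparison above, called 1165 genes higher (4.98%) and 730 lower (3.12%), 1895 genes or 8.09% in all. Of the genes that rose with ACC in CLE12p, 395 also rose in water, which is 67.2% of the first list and 33.9% of the second. Of the genes that fell, 249 also fell in water, or 45.4% and 34.1% of these lists. With single libraries of the 4 groups left out, the share of 67.2% ran from 55.9%, without water replicate 1, to 77.3%, without CLE12p replicate 1. The share of 45.4% ran from 29.7%, without ACC replicate 3, to 63.9%, without CLE12p replicate 1. Calls in opposite directions numbered 0. Over all calls in CLE12p, 1084 of 1136 genes (95.4%) had the same sign in water, compared with 61.6% of the 23413 genes tested. The share was 63.0% among the 18712 genes that averaged 1 log2 CPM or more. Across those genes, the fold changes in both backgrounds correlated with Pearson r = 0.550 and Spearman rho = 0.422. Genes are not independent replicates, and both sets of values come from 1 fit.

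**Figure D2:**
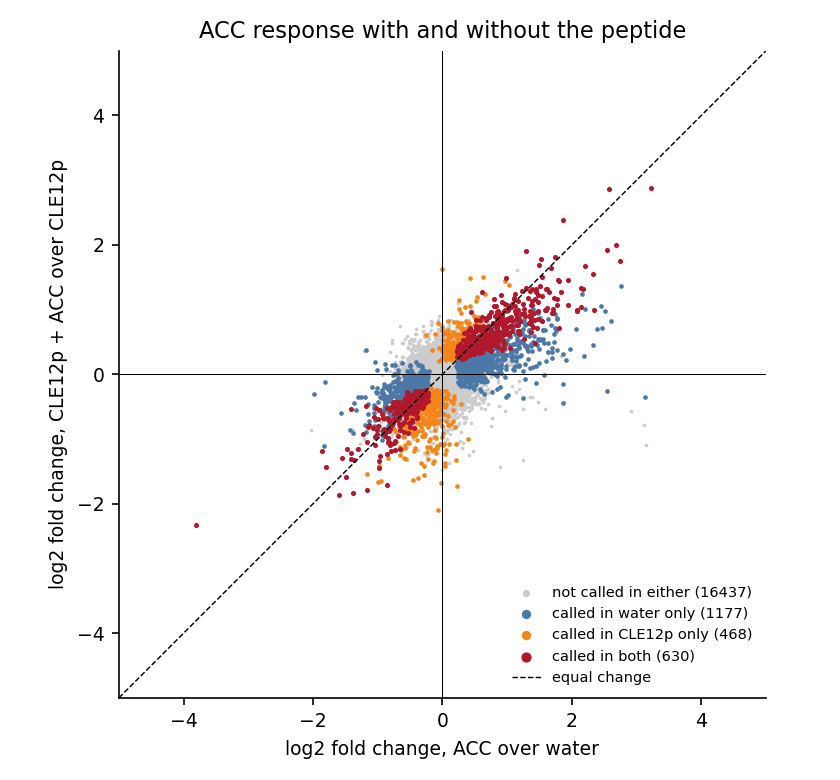
Log2 fold change of CLE12p with ACC over CLE12p (vertical) against that of ACC over water (horizontal), for the 18712 genes averaging 1 log2 CPM or more; colours give the calls and the dashed line marks equal change. The 630 genes called in both all have the same sign on both axes, and many genes called in water but not in CLE12p lie below the dashed line on the right. That place follows largely from choosing genes that pass in water and miss beside the peptide.

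The shared genes include some with large changes in both backgrounds. Lsat_1_v5_gn_2_29221 had 781, 812 and 688 CPM in CLE12p with ACC, against 179, 98.2 and 295 CPM in CLE12p. It rose by 2.00 ± 0.34 on the log2 scale (SE; edgeR adjusted p = 0.00113) beside the peptide and by 2.68 ± 0.35 in water (adjusted p = 3.78e-05), where ACC libraries had 416 to 526 CPM, against 44.3 to 90.3 CPM in water libraries. Lsat_1_v5_gn_7_45101 had 82.2, 59.5 and 63.3 CPM in CLE12p with ACC, against 19.8, 7.68 and 27.5 CPM in CLE12p, a rise of 1.92 ± 0.32 (SE; edgeR adjusted p = 0.00107). In water it rose by 2.55 ± 0.34 (adjusted p = 4.72e-05). For both genes the lowest peptide library was replicate 2 and the highest replicate 3.

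Among the genes that fell in both, Lsat_1_v5_gn_9_81901 had 3.04, 2.76 and 4.22 CPM in CLE12p with ACC, against 9.92, 14.8 and 5.36 CPM in CLE12p. It fell by 1.59 ± 0.36 on the log2 scale (SE; edgeR adjusted p = 0.0108), and its log2 fold change in water was -1.49 ± 0.33 (adjusted p = 0.00568). Lsat_1_v5_gn_6_8401 had 10.2, 10.5 and 18.2 CPM in CLE12p with ACC, against 31.4, 49.1 and 25.2 CPM in CLE12p. It fell by 1.44 ± 0.31 (SE; edgeR adjusted p = 0.00745), and its log2 fold change in water was -1.80 ± 0.31 (adjusted p = 5.56e-04). Replicate 2 of the peptide was highest and replicate 3 lowest for both. Neither call held without CLE12p replicate 2 (adjusted p of 0.0914 and 0.0607) or without CLE12p with ACC replicate 2 (0.0626 and 0.0512), with both genes still lower.

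The size of the response was read from lists chosen in the other background, because a list is inflated where it was chosen. The 1895 genes called in water moved in the same direction beside the peptide by a median of 0.34 on the log2 scale, and by 0.58 in water, where they were chosen. The 1136 genes called beside the peptide moved by a median of 0.57 there, where they were chosen, and by 0.43 in water. Genes called in water that did not pass the test beside the peptide still leaned the same way. Of 770 such genes that rose in water, 659 were above 0 beside the peptide, with a median of 0.21, and of 481 that fell in water, 437 were below 0, with a median of -0.23. Conversely, 193 genes called higher beside the peptide alone had a median of 0.23 in water, with 181 above 0. The 299 called lower had a median of -0.20, with 259 below 0. The lists of 770, 481, 193 and 299 genes leave out genes called in the background measured. Their medians there are therefore held small by the choice. Over all genes tested, 49.6% were above 0 beside the peptide and 48.7% in water.

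The genes that rose and those that fell by at least 2-fold beside the peptide had different values in water. The 96 that rose had a median of 1.39 in water, and 73 of them (76.0%) were called there. The 93 that fell had a median of -0.66 in water, and 32 of them (34.4%) were called there. Over all genes tested, ACC in water also called fewer genes lower (3.12%) than higher (4.98%). Of these calls, 84 that fell and 296 that rose changed by at least 2-fold in water. With each of the 12 libraries of these 4 groups left out in turn, the share called in water ran from 69.1% to 88.2% for the genes that rose and from 22.1% to 51.0% for those that fell. The median in water of the genes that fell ran from -0.83, without CLE12p replicate 1, to -0.42, without CLE12p replicate 3. The difference between both shares was not tested.

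A difference between the ACC effect beside the peptide and that in water was tested gene by gene as an interaction. It passed for 2 genes (0.00854% of those tested), while 1886 genes (8.06%) had an unadjusted p below 0.05. Both genes rose with ACC in water and did not pass the test beside the peptide. Lsat_1_v5_gn_5_104920 had 31.4, 25.6 and 24.3 CPM in CLE12p with ACC, against 28.4, 30.2 and 36.4 CPM in CLE12p, so the groups overlapped. In ACC it had 42.5, 31.4 and 32.9 CPM, against 20.0, 19.0 and 20.3 CPM in water. Its ACC change was -0.22 ± 0.12 beside the peptide (SE; edgeR adjusted p = 0.359) and 0.85 ± 0.12 in water (adjusted p = 7.74e-05), an interaction of -1.07 ± 0.17 (adjusted p = 0.0246).

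Lsat_1_v5_gn_6_12161 had 9.59, 11.7 and 6.51 CPM in CLE12p with ACC, against 9.15, 9.45 and 14.6 CPM in CLE12p, again with overlap. In ACC it had 20.1, 9.62 and 11.3 CPM, against 1.88, 1.92 and 3.22 CPM in water. The 3 treated groups stood at similar levels, each above water. Its ACC change was -0.26 ± 0.28 beside the peptide (SE; edgeR adjusted p = 0.748) and 2.54 ± 0.32 in water (adjusted p = 2.60e-05). Its interaction was -2.79 ± 0.43 (adjusted p = 0.0246). Over all alternatives tried, the adjusted p ran from 3.80e-05 to 0.169 for the first gene and from 1.41e-06 to 0.169 for the second, and both stayed below 0 in each.

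The 3 CLE12p libraries were spread along the ACC response. Over the 1165 genes that rose with ACC in water, mean log2 CPM was 5.12, 5.19 and 5.02 in CLE12p with ACC, against 4.72, 4.50 and 4.84 in CLE12p. Over the 730 genes that fell in water it was 3.96, 4.04 and 4.07 in CLE12p with ACC, against 4.40, 4.51 and 4.30 in CLE12p. The groups did not overlap on either list, and replicate 2 of the peptide lay farthest from the ACC side while replicate 3 lay nearest to it. Replicate 3 had the highest of the 3 CLE12p values for 738 of the 1165 rising genes (63.3%) and the lowest for 422 of the 730 falling genes (57.8%). Over all genes tested these shares were 35.8% and 34.8%. Between single libraries, the median change in the direction of ACC ran from 0.17, for replicate 3 against replicate 3, to 0.49, for replicate 1 against replicate 2 of the peptide. On the 620 genes called higher with CLE12p with ABA against ABA, mean log2 CPM was 5.14, 4.88 and 5.16 in CLE12p. Water libraries had 4.30, 4.29 and 4.45 there. On the 299 called lower it was 4.59, 4.72 and 4.62 in CLE12p, against 4.93, 4.93 and 4.87 in water. Replicate 2 of the peptide lay nearest water on both lists. The lists of 620 and 1165 genes share 203 genes, and those of 299 and 730 genes share 101. They are therefore not separate from the lists chosen with ACC, and levels without the shared genes were not computed.

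**Figure D3:**
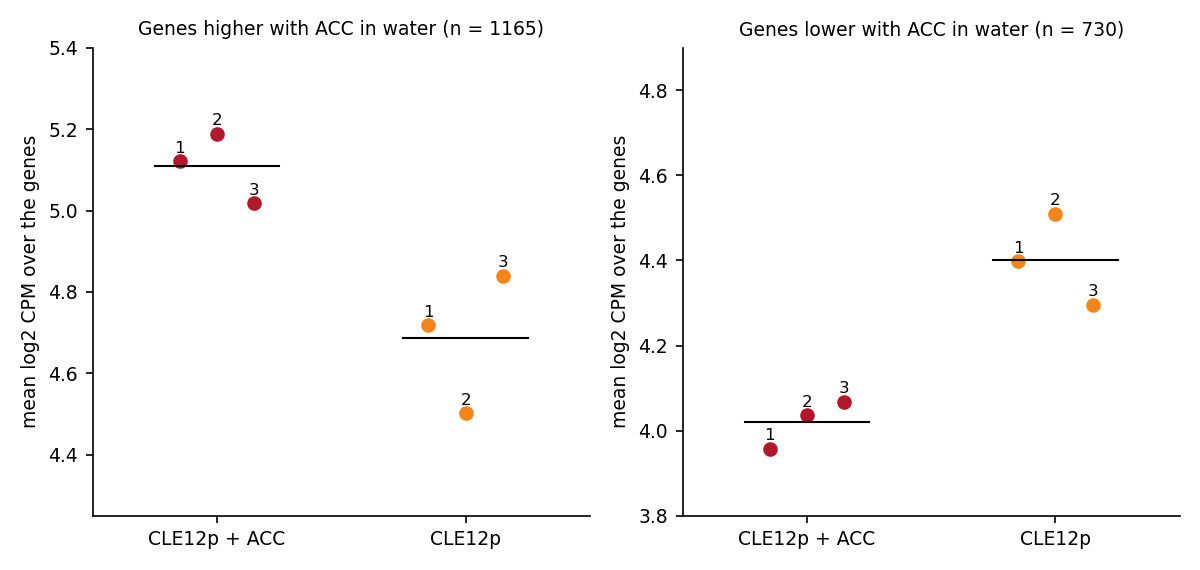
Mean log2 CPM (vertical axes, which do not start at 0) over the genes called for ACC in water, in each library of CLE12p with ACC and of CLE12p; numbers beside the points are replicates and bars are group means. Both groups are separate in each panel, and within CLE12p replicate 2 and replicate 3 lie at opposite ends.

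The number of calls depended on which peptide library was present. Without CLE12p replicate 3, 808 genes rose and 811 fell, without replicate 2 the counts were 334 and 328, and without replicate 1 they were 335 and 227. Leaving out CLE12p with ACC replicate 2 gave 315 and 287, replicate 1 gave 457 and 336, and replicate 3 gave 534 and 472. Of the 1136 genes, 397 (34.9%) were called in all 6 of these fits, among them the first 4 genes named here. When the 6 libraries were fitted without the other groups, 230 genes rose and 126 fell, whereas ACC against water fitted in that way gave 1643 and 1046. In the main fit the spread is pooled over all 7 groups. By median SD per gene, CLE12p (0.177) and CLE12p with ACC (0.166) were the widest of these, so the pooled spread tends to lie below their own. Its part in the change of counts was not tested. What sets the CLE12p libraries apart was not tested.

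**Figure D4:**
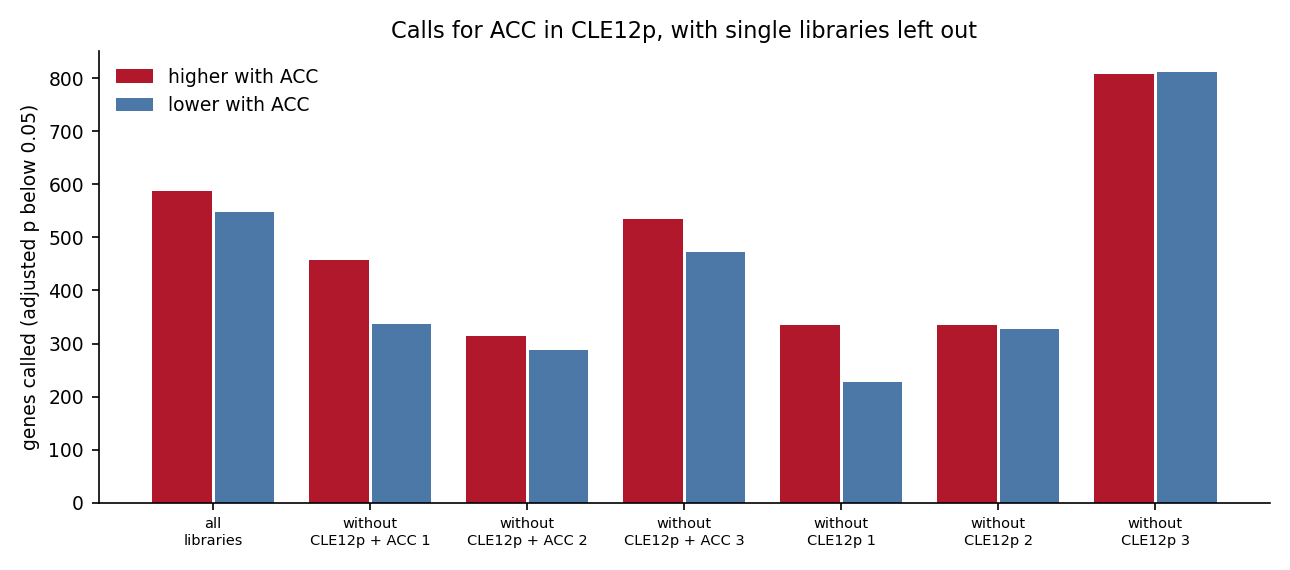
Number of genes called higher (red) and lower (blue) with ACC beside the peptide, with all libraries and with each of the 6 libraries compared left out. Calls range from 315 to 808 for genes that rose and from 227 to 811 for those that fell, with the highest counts without CLE12p replicate 3.

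The genes that moved with ACC beside the peptide were then followed in 2 other comparisons that share no library with it. These share the 3 ABA libraries with each other, with ABA on top in one and at the base in the other. An ABA value that is low by chance lowers the first and raises the second, so they are not separate observations. With ABA against ethanol, 142 of the 588 genes that rose with ACC were called lower (24.1%) and 87 higher (14.8%), where ABA called 5.01% of all genes lower and 5.15% higher. Of the 548 genes that fell with ACC, 125 were called higher with ABA (22.8%) and 40 lower (7.30%). Their median change with ABA was 0.15 on the log2 scale, and that of the genes that rose with ACC was -0.10. Genes of both lists thus responded to ABA in either direction, with more calls against the direction of ACC than along it. Without each of the 12 libraries of the ACC, water and CLE12p comparisons, the shares called against the direction of ACC ran from 22.3% to 24.9% and from 20.5% to 28.4%. None of these 12 is an ABA or ethanol library, so the ranges do not cover the spread behind the ABA calls, which rest on 3 ABA and 2 ethanol libraries.

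When the peptide was added to ABA, the genes that rose with ACC were called higher more often than lower, although no ACC was given there. Of the 588 genes that rose with ACC beside the peptide, 106 were called higher in CLE12p with ABA against ABA (18.0%) and 7 lower (1.19%), where 2.65% and 1.28% of all genes were called. Their median change was 0.17, with 433 genes above 0. Of the 548 genes that fell, 41 were called lower (7.48%) and 22 higher (4.01%), and the median change was -0.07, with 328 genes below 0. Within the genes that fell, the 249 shared with water had a median of -0.21 when the peptide was added to ABA, and the 299 not called in water one of 0.05.

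**Figure D5:**
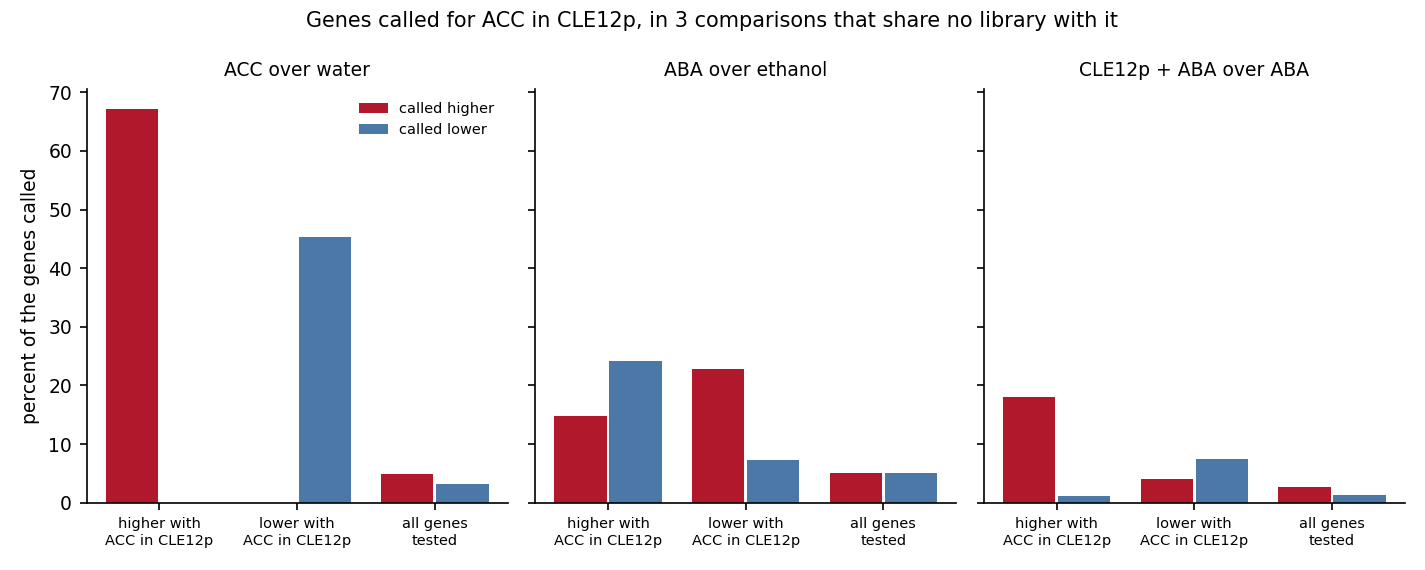
Percent of genes called higher (red) and lower (blue) in 3 comparisons that use no CLE12p with ACC or CLE12p library, for the 588 genes that rose and the 548 that fell with ACC beside the peptide and for all 23413 genes tested; the middle and right panels share the 3 ABA libraries. The lists keep their direction with ACC over water, lean against it with ABA over ethanol (24.1% and 22.8%), and the genes that rose lean along it with CLE12p added to ABA (18.0%).

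The summed levels of these lists show what they weigh in a library. The genes that rose with ACC beside the peptide took 5.94% ± 0.22 of normalized reads in CLE12p with ACC, against 3.91% ± 0.46 in CLE12p (SD, n = 3 each). In ACC they took 4.91% ± 0.15, against 3.26% ± 0.15 in water. The genes that fell took 2.46% ± 0.03 in CLE12p with ACC, against 3.46% ± 0.34 in CLE12p, and 3.00% ± 0.17 in ACC, against 3.69% ± 0.07 in water. The peptide groups set the fold changes that chose these genes. The ACC and water libraries entered the choice through the filter and the estimate of spread, and between 90.8% and 96.2% of the 1136 calls were kept when 1 of them was left out.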

How the data were processed

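The authors deposited unnormalized counts of reads for every gene model. Per the labels' protocols, RNA of whole seedlings was treated with DNase during extraction. The submitters' processing notes list STAR 2.7.10a. How reads were counted, with which strand setting, build and annotation, is not given in the sources used here, so reads of genes that overlap, of antisense pairs and of near-identical copies cannot be told apart. Of 37828 identifiers, 0 matched the 51651 genes of the reference table (assembly Lsat_Salinas_v11). Columns left unused numbered 0.

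The main test was that of edgeR 4.0.16, run under R 4.3.3 (filterByExpr with a minimum of 10 counts, TMM scaling, quasi-likelihood fit of group means over 20 libraries and 7 groups, common biological coefficient of variation 0.117). Tests were two-sided, with Benjamini-Hochberg adjustment over 23413 genes and calls at an adjusted p below 0.05. SE is the size of the log2 fold change over the root of F. Levels are TMM-scaled CPM, with a prior count of 2 for log2 values. Library totals ran from 18614220 to 27101622, and libraries within a group differed more than sampling of reads allows (chi-square over its degrees of freedom, 3.54 to 23.8). The fit was tested on simulated data, drawn with the same spread per gene in all groups. That test therefore does not cover the wider spread of the peptide groups. Alternatives included DESeq2 1.42.0, other scaling and filters, a replicate block and left-out libraries.

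Identifiers named are, for each comparison, at most 2 that rose and 2 that fell. They have the most extreme log2 fold change (or, for both backgrounds, the largest smaller change), a mean of at least 1 log2 CPM and no overlap between libraries. All interaction calls are named. The comparison, lists and rules were chosen with earlier results of these data known.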

Additional observations from a re-analysis of the deposited data

Results flagged for a closer look

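For 2 genes the ACC effect differed between seedlings with and without the peptide by a test of the difference itself. The interaction, the log2 fold change of ACC in CLE12p minus that in water, was -1.07 for Lsat_1_v5_gn_5_104920 and -2.79 for Lsat_1_v5_gn_6_12161 (edgeR adjusted p = 0.0246 for both). Both calls were lost when only the 4 groups were fitted (adjusted p of 0.118 and 0.0669), with a replicate block (0.0793 for both), and without CLE12p with ACC replicate 3 (0.129), ACC replicate 1 (0.0871), water replicate 1 (0.169) or water replicate 2 (0.158). The interaction itself was -1.07 and -2.79 with only the 4 groups and also with the block, and it ran from -1.19 to -0.93 and from -3.08 to -2.41 without single libraries. Groups of 3 libraries are too small for a test of single outlying libraries.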

How the results depend on the processing

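Counts of calls for ACC in CLE12p stayed within 1.5 times with other size factors, other filters, DESeq2 (755 higher, 704 lower) and a replicate block (518 and 484), and fell to 230 and 126 when only the groups compared were fitted. Without single libraries they ran from 315 to 808 and from 227 to 811, and those for ACC in water from 707 to 1010 and from 390 to 648. Interaction calls were 10 without a filter, 35 in DESeq2, 1 with only the groups compared, 0 with the replicate block, and from 0 to 29 without single libraries, the highest without CLE12p replicate 2. Shared calls were 200 higher and 81 lower at an adjusted p below 0.01, and ran from 237 to 509 and from 142 to 340 without single libraries, with from 0 to 2 calls in opposite directions. The median change beside the peptide of genes called in water ran from 0.26 to 0.42 without single libraries. The reverse median was 0.52 at an adjusted p below 0.01 and ran from 0.39 to 0.53. The correlation was 0.346 over all genes tested and 0.624 from 4 log2 CPM upward. Without single libraries it ran from 0.40, without CLE12p replicate 2, to 0.58, without CLE12p replicate 3. With single libraries of CLE12p with ACC over single libraries of CLE12p, set against ACC in water, it ran from 0.20 to 0.62. Same-numbered libraries of CLE12p with ACC and CLE12p correlated in their deviations with r of 0.0143, 0.170 and 0.162. Differently numbered ones gave -0.191 to 0.0489, so the values of 0.170 and 0.162 lay above all of these. For ACC and water, same-numbered libraries gave -0.0093, -0.0557 and 0.0575, and the others -0.064 to 0.0765. The labels name no pairs, so the main fit did not take the numbers as pairs, and the replicate block gives the fit by number. The causes of these shifts were not tested. With 3 libraries per group, genes that missed the threshold are not shown to be unchanged.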

Other observations

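Called genes had a called neighbour in the table more often than all genes tested did, though most had none. Within a series of identifiers (the number after "gn"), 74 of the 588 genes that rose with ACC beside the peptide (12.6%) had an adjacent tested gene that also rose, while 4.92% of all genes tested had such a neighbour. For the 548 genes that fell, 49 (8.94%) had an adjacent gene that also fell, compared with 4.60% of all genes. The sources used here do not say whether the order of the table follows the chromosomes, and reads shared between similar copies could not be told apart. Whether either has a part in these shares was not tested. Across the 10 series, between 2.04% and 2.92% of tested genes rose and between 1.54% and 3.22% fell.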
